A study of Helix lucorum with 35 samples.

Results

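The left and right medial parts of the parietal ganglia (PaG) of the terrestrial snail *Helix lucorum* were compared in the second experiment of the study (E2). The medial part is a small piece of the ganglion that holds mostly the cell bodies of the giant premotor interneurons Pa2 and Pa3, which drive withdrawal behavior. The comparison used the 10 RNA-Seq libraries of the 5 snails with a library from each side (snails 8, 9, 10, 11, and 13), out of 24 libraries with counts and 35 samples in the series. The left part was the activated one in snails 8, 10, 11, and 13, and the right part was the activated one in snail 9. Activated parts were kept in saline with the protein synthesis inhibitor anisomycin and then with serotonin and caffeine added, whereas the control part of the same adult snail was cut out and frozen before any drug was given. Side and activation therefore coincided in 4 of the 5 snails, and snail 9 is the pair in which they ran against each other. Snail 12 gave only a left control library and snail 7 only a right activated library, so these 2 libraries had no part in the calls and were used as a second comparison with the sides and the treatment crossed. In the first experiment (E1), whole parietal ganglia of snails 1 to 6 were used, with the left ganglion activated in 3 snails and the right ganglion in the other 3, and by the methods the left ganglia of E1 carried the adhered visceral ganglion, although a legend of the study says that the visceral ganglion was left out. The dissected part was not checked against markers of Pa2 and Pa3, since the contigs of the assembly have no gene names here apart from 1 contig, the homolog of *c-fos* and *fosl2*.

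Gastropods have an asymmetric body plan, and ganglia of the visceral loop, to which the PaG belong, differ between the sides in the organs they serve. Molluscan neurons release many neuropeptides, and identified giant neurons can devote much of their messenger RNA to the transcripts of a few secreted products. Immediate early genes, such as the *fos* family of transcription factor subunits, are switched on within minutes of neuronal activity without new protein synthesis. In bulk tissue, fewer cells of a type and less RNA per cell cannot be told apart.

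The total count ranged from 8172251 to 29646376 in the left libraries (median 13771060) and from 926128 to 28246418 in the right libraries (median 11662374). The right library of snail 9, the only activated right library with a partner, was the shallowest. In that library 3 counts were worth 1.63 CPM (the count scaled to a common library size), against at most 0.352 CPM in the other 9 libraries, and its scaling factor of 1.99 stood apart from the range of 0.777 to 1.16 in the others. Contigs at a low level could therefore not be detected on the right side of snail 9. At an equal depth of 926128 counts, 102635, 110965, 95250, 107375, and 83639 contigs were expected with a count on the left of snails 8, 9, 10, 11, and 13, against 116828, 104190, 103666, 97002, and 103302 on the right. The left value was higher in 2 snails and lower in 3, with a mean difference of -5025 ± 13097 contigs (SD, n = 5; p = 0.438 by a two-sided exact permutation of the signs, which with 5 pairs cannot go below 0.063).

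As whole transcriptomes, libraries lay closer together by snail than by side. The distance between libraries, taken as 1 minus Spearman's correlation over 300806 contigs, averaged 0.466 between opposite sides of different snails and 0.462 between the same side of different snails. The difference of 0.00482 did not pass the test that exchanges the sides within snails (exact permutation test over 32 patterns, p = 0.375, smallest possible p 0.063). Libraries of the same snail were closer, at 0.332 on average. Without snail 9 the difference between sides was 0.0101 (exact permutation test, p = 0.125, the smallest p that 4 pairs allow).

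Single contigs differed strongly, and far more of them were higher on the left. Of the 300806 contigs whose counts summed to more than 10 in these libraries, 455 were called higher in the left part and 77 higher in the right part (edgeR's exact test, BH-adjusted p below 0.05, fold change above 2). These counts are 0.151% and 0.0256% of the contigs tested. The smallest fold change among called contigs with counts on both sides was 4.43 on the left and 5.44 on the right. The libraries of a snail come from 1 animal, and with a blocking term for the snail (quasi-likelihood test of edgeR) 880 contigs (0.293%) were called higher on the left and 290 (0.0964%) higher on the right. Without the block the same test called 147 and 3, all of them among the 532 contigs called by the exact test. Scaled by total counts, with no correction for composition, the exact test gave 379 higher on the left and 141 higher on the right, so that the left share of the calls was 72.9% instead of 85.5%. That scaling moved the median log2 fold change of contigs of at least 1 CPM by -0.21.

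Contigs called higher on the left held a large part of all left-side RNA. They made up 17.9%, 15.1%, 12.4%, 9.92%, and 17.0% of the counts in the left libraries of snails 8, 9, 10, 11, and 13, against 0.206%, 0.204%, 0.692%, 0.204%, and 0.130% in the right libraries of the same snails. The left side thus averaged 14.5% ± 3.28 and the right side 0.287% ± 0.229 (SD, n = 5 each), and the groups did not overlap. Since these contigs were chosen for being higher on the left in these libraries, the shares describe the list and were not tested. The 95% Wilson intervals of these shares reach at most 0.0263 percentage points to either side and cover counting error only. The share on the left was 17.98 times that on the right in snail 10 and between 48.7 and 131 times in the other 4 snails. Contigs called higher on the right were rare transcripts by comparison, at 0.0219% ± 0.00781 of the counts on the left and 0.189% ± 0.0417 on the right (SD, n = 5 each).

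**Figure D1:**
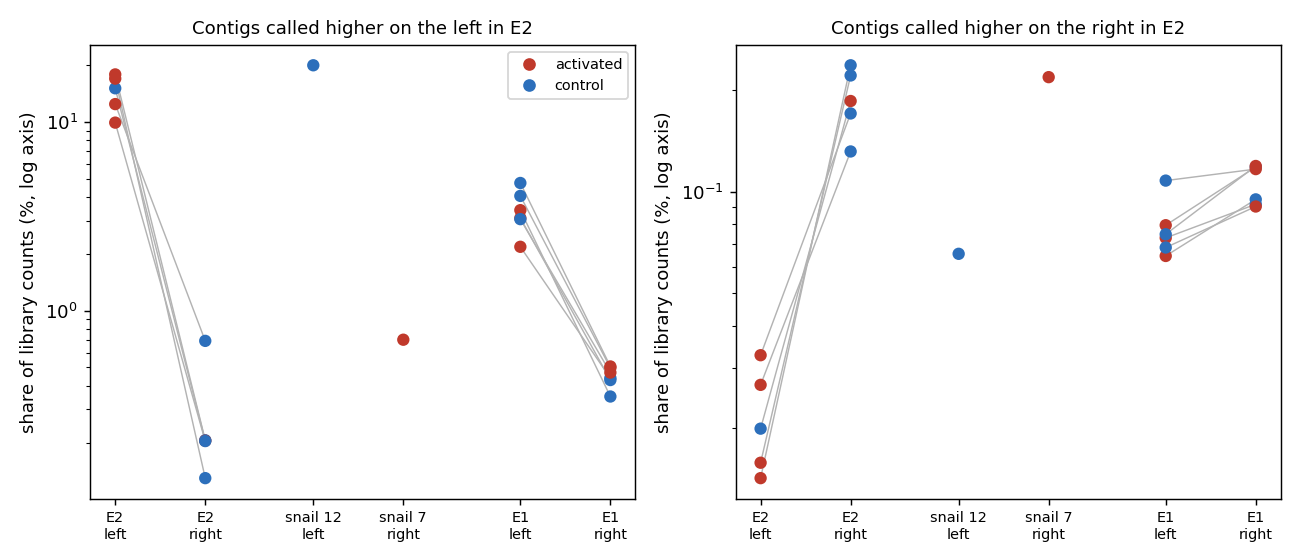
Share of each library's counts (%, log axis) taken by the 455 contigs called higher on the left in E2 and by the 77 called higher on the right, for the E2 pairs, the unpaired E2 libraries of snails 12 and 7, and the E1 pairs. Points are libraries, colored by activated or control state, and gray lines join the sides of a snail. The left list took 9.92 to 17.9% of the paired E2 left libraries and at most 0.692% of the paired E2 right libraries. Snail 9, the pair with the right part activated, had a part in choosing the list. The list took 20.0% of the left library of snail 12 and 0.701% of the right library of snail 7.

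The left list ranged from scarce to dominant transcripts. The mean level on the left ran from 0.263 to 31345 CPM with a median of 6.79 CPM, whereas the median level on the right was 0.0925 CPM. On the left, 204 of the 455 contigs reached 10 CPM, 80 reached 100 CPM, and 25 reached 1000 CPM. The 10 most abundant contigs accounted for 66.0% of the list's summed CPM on the left. Of the 20 contigs with the highest mean level in the left libraries, 7 belonged to the left list, as did 17 of the highest 50 and 24 of the highest 100. Of the 500 contigs with the highest mean level in the right libraries, 3 belonged to the left list and 4 to the right list. The right list had a median of 1.78 CPM on the right and 0.0677 CPM on the left, and 4 of its 77 contigs reached 100 CPM on the right.

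For 94 of the 455 contigs higher on the left, no right library had a count, and for 24 of the 77 contigs higher on the right, no left library had one. The same counts over all contigs tested are not given here, so these numbers describe the lists only. The median fitted log2 fold change was 5.98 in the left list and -3.89 in the right list. With the contigs absent from the other side set at their lower bound (3 counts over that side), the medians were 5.31 and -3.74, against a median of 0.03 over all contigs tested. Of the contigs with counts on both sides, 226 of 361 were over 32-fold higher on the left, and 6 of 53 were over 32-fold higher on the right.

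Snail 9 went with the other snails for almost all contigs of the lists. Of the 455 contigs higher on the left, 437 were higher on the left in snail 9, although its left part was the control, 14 had the same value on both sides, and 4 were higher on the right. The corresponding numbers in the 4 other snails were between 430 and 443. The median left-minus-right difference of log2(CPM + 0.5) was 3.51, 2.78, 1.89, 2.24, and 2.48 in snails 8, 9, 10, 11, and 13. Of the 77 contigs higher on the right, 64 were higher on the right in snail 9, 10 were equal, and 3 were higher on the left, and the medians were -1.33, -1.16, -1.90, -1.58, and -1.86 in the same order of snails. In all 5 snails, 373 of the 455 and 56 of the 77 had the direction of their list, beside 2.84% of all contigs tested that were higher on the left and 0.966% that were higher on the right in all 5. Every left library was above every right library for 345 of the 455, beside 1227 (0.408%) of all contigs tested. Every right library was above every left library for 48 of the 77, beside 349 (0.116%) of all contigs tested. Snail 9 had a part in these calls, so the counts describe the lists and do not test them.

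**Figure D2:**
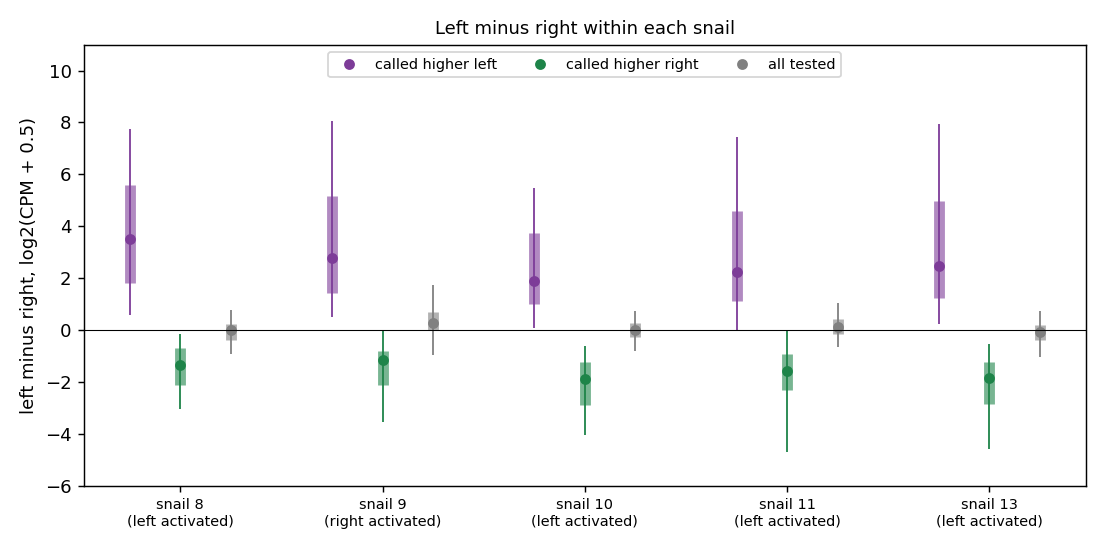
Left-minus-right difference of log2(CPM + 0.5) in each snail for the 455 contigs called higher on the left, the 77 called higher on the right, and all 300806 tested. Points are medians over contigs, thick bars the quartiles, and thin lines the range from the 5th to the 95th percentile. In snail 9, whose right part was activated, the medians of 2.78 and -1.16 lie on the same sides of zero as in the snails with an activated left part.

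To see what snail 9 shows when it has no part in the choice, the sides were compared in the other 4 snails alone. Of 289271 contigs tested, 447 (0.155%) were called higher on the left and 135 (0.0467%) higher on the right by the exact test. In the left list without snail 9, 347 contigs (77.6%, exact 95% interval 73.5 to 81.4%) were also higher on the left in snail 9, 62 were higher on the right, and 38 had equal values. Over all contigs tested, 59.4% were higher on the left in snail 9, whose libraries detected 289541 contigs on the left and 104190 on the right. Of the 289271, 171740 were higher on the left, 50617 were higher on the right, and 66914 were equal. Equal values lower a share and were more frequent over all contigs than in the list, so 77.6% and 59.4% are not fully comparable. A further count kept contigs above 1.63 CPM on at least 1 side of snail 9, the level that 3 counts were worth in its smaller library. A contig could pass through its left value alone. Of those in the list, 231 of 269 (85.9%) were higher on the left, against 71.6% of all such contigs. With plain shares of the total count it was 229 of 269 (85.1%), against 46.3%. The control side of snail 9 was thus the higher one for most contigs of the list, under both scalings.

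For contigs higher on the right, the direction in snail 9 was divided. Of the 135 called without snail 9, 52 (38.5%, exact 95% interval 30.3 to 47.3%) were higher on the right in snail 9, 54 were higher on the left, and 29 were equal. Over all contigs tested, 17.5% were higher on the right, 59.4% were higher on the left, and the rest were equal. Above 1.63 CPM on at least 1 side of snail 9, 25 of 38 (65.8%, exact 95% interval 48.65 to 80.37%) were higher on the right, against 28.4% of all such contigs. A contig could pass here through its right value alone. With shares of the total count it was 27 of 38 (71.1%), against 53.7%. Of the same 38, 18 were lower in the left library of snail 12 than in the right library of snail 7, 17 were higher, and 3 were equal. Over all such contigs 50.8% were lower there. The median level of the 54 contigs that turned was 0.856 CPM on the left and 0 CPM on the right of snail 9, below the 1.63 CPM that 3 counts were worth on the right.

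The 2 libraries without a partner crossed the sides and the treatment as snail 9 does. Of the 455 contigs higher on the left, 381 were higher in the left control library of snail 12 than in the right activated library of snail 7, 47 were lower, and 27 were equal. Of the 77 contigs higher on the right, 53 were lower in the left library of snail 12, 16 were higher, and 8 were equal. Over all contigs tested without snail 9, 40.5% were higher in the left library of snail 12 and 46.0% were lower. The left list took 20.0% of the counts of the left library of snail 12 and 0.701% of those of the right library of snail 7, and the right list took 0.0654% and 0.218%. Snails 12 and 7 are different animals, so this comparison also holds the difference between them.

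With these libraries included, the sides were compared within each treatment state. For 349 of the 455 contigs, each of the 4 activated left libraries was above both activated right libraries, and for 377 both control left libraries were above each of the 4 control right libraries. For 308 of the 455 (67.7%) both statements held, beside 0.567% of all contigs tested. For the right list, 37 of 77 (48.1%) were higher on the right in this sense within both states, beside 0.19% of all contigs tested. Of these 12 libraries, 10 had a part in the calls, so the counts describe the lists and do not test them.

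Activation was then added to the model with the snail and the side. With both terms, 384 contigs (0.128%) were called higher on the left and 61 (0.0203%) higher on the right by edgeR's quasi-likelihood test. They included 225 of the 455 and 10 of the 77 contigs of the exact test, and all 532 kept their sign. In this model both terms rest on snail 9, which weighs as much as the other 4 snails together. Of the 384 contigs, 260 were higher on the left in all 5 snails, whereas 88 were over 2-fold higher on the left in snail 9 and under 2-fold higher in the mean of the other 4. Of the 61, 23 were higher on the right in all 5 snails and 35 were over 2-fold higher on the right in snail 9 only in this sense. The calls of this model are thus not all side differences shared by the snails. The activation term called 5 contigs in all (0.00166%), a share at which lists of this size would hardly hold any, and none was in either list. An unadjusted p below 0.05 for activation was found for 25 (5.49%) and 3 (3.90%) contigs of the left and right lists, near the 4.46% of all contigs tested. The lists were called from these same libraries with snail 9 included, and the activation term rests on snail 9. These counts therefore describe the lists and do not test them.

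Contigs 1008934 and 1603400 were the left-side contigs under the naming rule, which asked for the same direction in all 5 snails. Contig 1008934 had 51.6, 41.5, 35.3, 37.8, and 48.7 CPM in the left libraries of snails 8, 9, 10, 11, and 13, against 0.450, 0, 0.277, 0.112, and 0.340 CPM in the right libraries. The left values were close to each other in all 5 snails, and the control value of snail 9 lay within the range of the activated ones. The log2 fold change was 7.18 (adjusted p = 4.96e-18 in the exact test of edgeR and 1.82e-11 in its blocked quasi-likelihood test). The left library of snail 12 had 35.9 CPM and the right library of snail 7 had 0.320 CPM. In E1 the contig had 2.08 to 11.6 CPM in the left ganglia and 0.151 to 1.40 CPM in the right ganglia, with no overlap (log2 fold change 3.12, adjusted p = 4.64e-05 in the exact test of edgeR).

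Contig 1603400 was an abundant transcript on the left. It had 2739, 1895, 2227, 1847, and 4247 CPM in the left libraries of snails 8, 9, 10, 11, and 13, against 33.6, 14.2, 62.7, 16.9, and 19.1 CPM in the right libraries. Every left value was over 1000 CPM and no right value reached 100 CPM. The log2 fold change was 6.46 (adjusted p = 2.00e-13 in the exact test of edgeR and 2.12e-11 in its blocked quasi-likelihood test). The left library of snail 12 had 3519 CPM and the right library of snail 7 had 25.2 CPM. In E1 the left ganglia had 23.4 to 479 CPM and the right ganglia 4.37 to 93.9 CPM, so that the ranges overlapped through the left ganglion of snail 2 (log2 fold change 3.03, adjusted p = 0.0217 in the exact test of edgeR).

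Contigs 761151 and 320255 were the right-side contigs under the rule. Contig 761151 had no count in any of the 5 left libraries, against 3.60, 6.57, 4.65, 5.84, and 1.89 CPM in the right libraries of snails 8, 9, 10, 11, and 13. The level was at least 84.5-fold higher on the right, with the left set at 3 counts over its 5 libraries (adjusted p = 3.11e-11 in the exact test of edgeR). It had no count in the left library of snail 12 and none in the right library of snail 7, and in E1 it was at 0 in 5 of 6 left ganglia and in 3 of 6 right ganglia. The contig was thus found only in some of the right parts and in 1 left ganglion, of snail 2, at 3.30 CPM.

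Contig 320255 had 0, 0, 0, 0.0746, and 0.0939 CPM in the left libraries of snails 8, 9, 10, 11, and 13, against 1.65, 0.548, 1.05, 1.91, and 3.14 CPM in the right libraries. The value of snail 9 on the right was 1 count. The log2 fold change was -5.18 (adjusted p = 2.10e-05 in the exact test of edgeR), and with activation in the model it was -5.55 and not called (quasi-likelihood test, adjusted p = 0.466). In E1 the sides overlapped, at 0.245 to 2.96 CPM in the left and 0.926 to 3.17 CPM in the right ganglia.

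**Figure D3:**
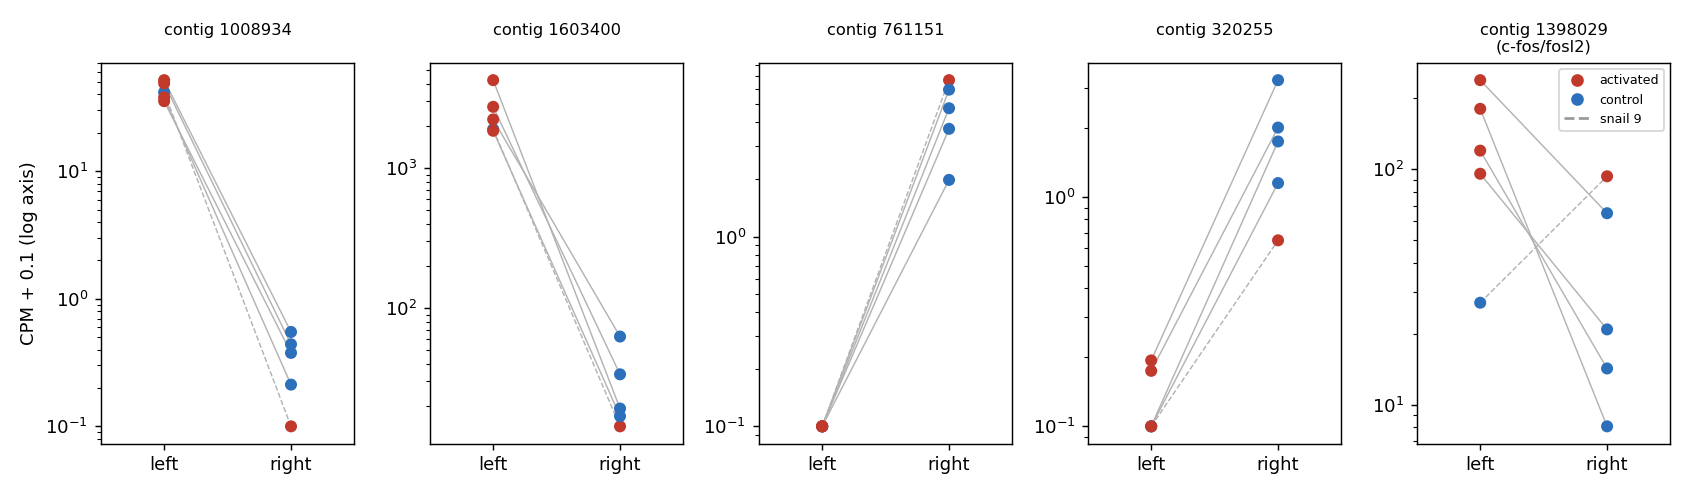
Level (CPM + 0.1, log axis) of contigs 1008934, 1603400, 761151, and 320255 and of the *c-fos*/*fosl2* contig in the left and right libraries of the 5 snails. Points are libraries colored by state, and lines join the sides of a snail, dashed for snail 9. The first 4 contigs were chosen for the same direction in all 5 snails, so the line of snail 9 runs with the others there by the rule. For the *c-fos*/*fosl2* contig, chosen by name, it runs against them.

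The *c-fos*/*fosl2* contig was higher on the activated side in each snail, whichever side that was. It had 95.5, 27.0, 239, 180, and 120 CPM in the left libraries of snails 8, 9, 10, 11, and 13, against 20.8, 93.1, 64.9, 7.98, and 14.1 CPM in the right libraries. The left library was higher in 4 snails, and in snail 9 the activated right library was higher. The left-minus-right difference of log2(CPM + 0.5) was 1.95 ± 2.30 (SD, n = 5; p = 0.125 by exact permutation of the signs), and the side was not called (log2 fold change 1.73, adjusted p = 1.0 in the exact test of edgeR). Taken as activated minus control, the difference was 2.65 ± 1.10, positive in 5 of 5 snails (p = 0.063 by exact permutation of the signs, a value that 5 pairs cannot go under). The left control library of snail 12 had 78.7 CPM and the right activated library of snail 7 had 152 CPM. In E1 the contig was higher in activated ganglia (log2 fold change 3.30, adjusted p = 0.00051 in the exact test of edgeR) and was not called between the sides (log2 fold change 0.67, adjusted p = 1.0 in the same test).

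Many contigs of the left list that turned round in snail 9 were called for activation in E1. E1 used other snails, with the sides balanced between activated and control, and called 327 of 387774 contigs higher in activated ganglia (0.0843%) and 7 lower (0.00181%). Of the 62 contigs called higher on the left without snail 9 and higher on the right in snail 9, 60 were tested in E1, and 30 of them were called higher in activated ganglia, with a median log2 fold change for activation of 2.78. Between the sides of E1 no contig of these 60 was called by edgeR's exact test, beside 0.0766% of all contigs higher on the left and 0.0722% on the right. At such shares a set of this size would hardly hold any. Of the 60, 3 had an unadjusted p below 0.05, beside 2.27% of all contigs tested. The median level of the 62 was 0.535 CPM on the left and 2.19 CPM on the right of snail 9. It was 1.05 CPM in the left library of snail 12 and 5.01 CPM in the right library of snail 7, where 54 of the 62 were higher on the right. The 54 contigs called higher on the right without snail 9 that turned round in it did not show this. All 54 were tested in E1, and none was called for activation by edgeR's exact test, beside the 0.0843% of all contigs given above. Of the 54, 3 had an unadjusted p below 0.05, beside 2.55% of all contigs tested, and the median log2 fold change for activation was -0.26. The *c-fos*/*fosl2* contig was not called between the sides without snail 9 by the exact test of edgeR (log2 fold change 2.51, adjusted p = 0.26), and it was called by the blocked quasi-likelihood test (adjusted p = 0.00882).

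Left-list contigs that held their side in snail 9 had the reverse pattern in E1. Of the 347, 327 were tested in E1, 128 were called higher on the left and none on the right, and the median log2 fold change between the sides was 2.71. For activation in E1 no contig of the 327 was called by edgeR's exact test, beside 0.0843% of all contigs called higher in activated ganglia. Of the 327, 9 had an unadjusted p below 0.05, beside 2.55% of all contigs tested, and the median log2 fold change was 0.12. On the right, contigs that held and contigs that turned had like values in E1. Of the 52 that held, 50 were tested, 4 were called higher on the right, and the median log2 fold change between the sides was -0.37. Of the 54 that turned, 5 were called higher on the right, with a median of -0.40. For activation none of the 50 was called by edgeR's exact test, and 0 had an unadjusted p below 0.05, beside the same shares of all contigs. A set of this size would hardly hold a call at that share. In the left library of snail 12, 301 of the 347 were higher than in the right library of snail 7. Of the 447 contigs called without snail 9, 340 were also among the 455, and of the 135 higher on the right, 44 were also among the 77.

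**Figure D4:**
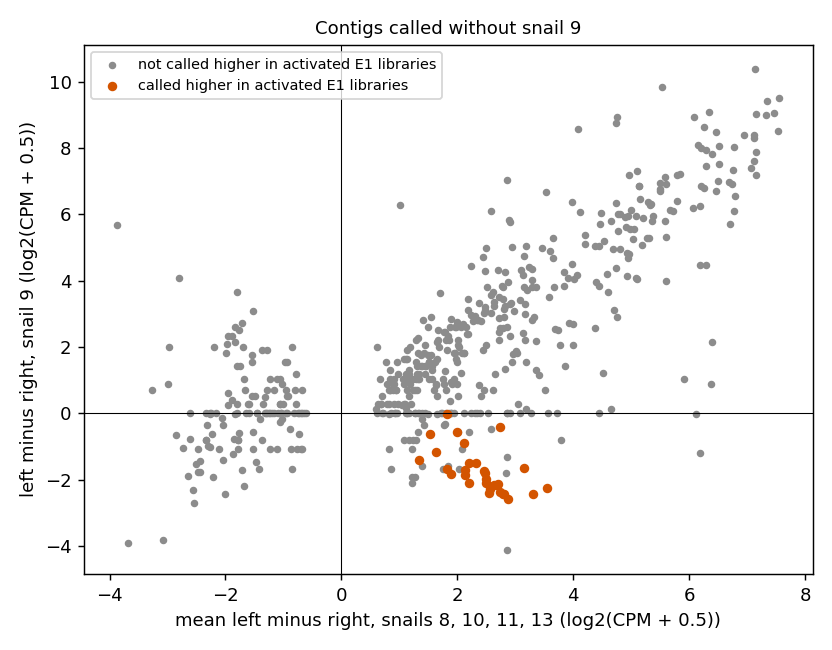
Left-minus-right difference of log2(CPM + 0.5) in snail 9 against the mean of the same difference in snails 8, 10, 11, and 13, for the 582 contigs called without snail 9. Orange points are the 30 contigs called higher in activated ganglia of E1. All 30 lie on the right of the plot and below the zero line, with higher levels on the activated right side of snail 9, and most other contigs of the left list lie above the zero line.

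Seen from E1, the 321 contigs that were called higher in activated ganglia and tested in E2 had a median left-over-right log2 fold change of 1.40 in E2. They were higher on the left in 272, 62, 274, 311, and 276 cases in snails 8, 9, 10, 11, and 13, and higher on the right in 31, 226, 41, 5, and 26 cases. Snail 9 was the only snail with more of them on the right, the activated side there. None of the 321 was called between the sides of E2 by edgeR's exact test with snail 9 included, although 122 had an unadjusted p below 0.05, beside 2.995% of all contigs tested. DESeq2 called 1 of them, the quasi-likelihood test 0, and the quasi-likelihood test with the snail as a block 22, all higher on the left. Leaving snail 9 out, the exact test called 30.

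The side lists of E2 and E1 were compared next. In E1, 297 contigs (0.0766%) were called higher in the left ganglia and 280 (0.0722%) higher in the right ganglia by the same test. Of the 455 contigs of the E2 left list, 411 were tested in E1, where 382 (92.9%) had a log2 fold change above 0 and 146 (35.5%) were called higher on the left. These 146 were 55.5% of the 263 contigs of the E1 left list that were tested in E2. The median log2 fold change of the 411 contigs in E1 was 2.71, beside 0.00 over the 282019 contigs tested in both experiments. None of the 411 was called for activation in E1 by edgeR's exact test, beside 0.0843% of all contigs called higher in activated ganglia. An unadjusted p below 0.05 was found for 6, beside the 2.55% of all contigs given above.

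The shares of library counts repeated this in every E1 snail, at a lower level. The E2 left list took 2.18 to 4.75% of the counts in the left ganglia of E1 (median 3.25%) and 0.351 to 0.506% in the right ganglia (median 0.454%). The 3 activated and the 3 control left ganglia were all above the 6 right ganglia. The visceral ganglion, on which the sources disagree for the left ganglia of E1, was not in the medial parts of E2 by the description of the dissection, and its part in the E1 values was not tested.

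The right lists had less in common. Of the 77 contigs, 73 were tested in E1, 52 (71.2%) had a log2 fold change below 0 there, and 9 (12.3%) were called higher on the right. The 9 shared contigs were 4% of the 225 contigs of the E1 right list that were tested in E2. The median log2 fold change of the 73 contigs in E1 was -0.43. The right list took 0.0645 to 0.108% of the counts in the left ganglia of E1 and 0.0903 to 0.119% in the right ganglia, with overlap between the sides.

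**Figure D5:**
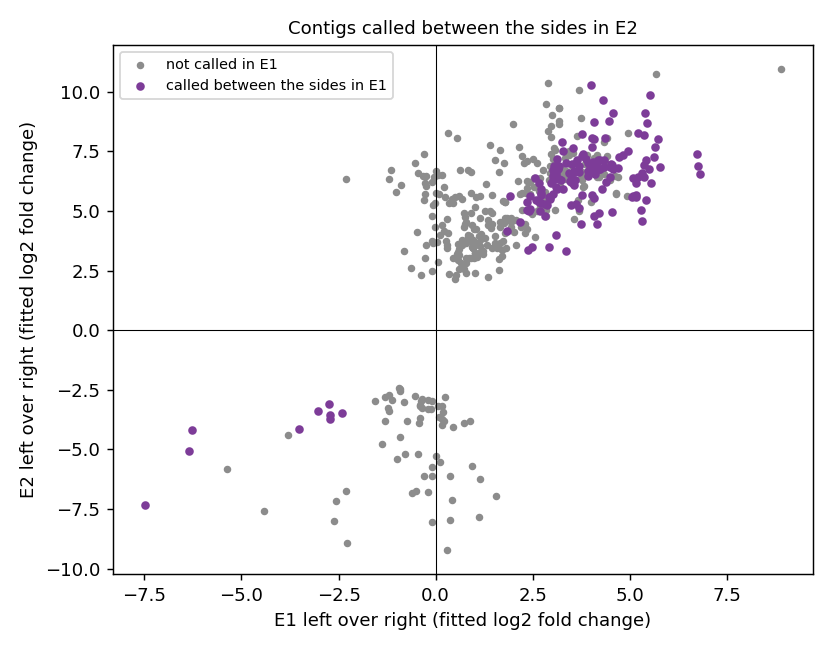
Fitted log2 fold change of left over right in E2 against the same in E1, for the 484 contigs called between the sides in E2 and tested in E1. Purple points are the 155 contigs also called between the sides in E1. The left list is spread to the right of zero in E1, with a median of 2.71, whereas most of the right list lies near zero, with a median of -0.43.

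The difference between the side effects of E2 and E1 was tested in 1 model over both experiments (interaction term, quasi-likelihood test of edgeR). The model had no term for the snail or for activation. The left part was mostly the activated one in E2, whereas activation was balanced over the sides in E1. It called 3 of 282019 contigs (0.00106%), and 7001 (2.48%) had an unadjusted p below 0.05. These contigs, 1705584, 685565, and 473854, are named because there were only 3 and were picked after their values were seen. All 3 were also called higher on the left in E2. Of the 411 contigs of the E2 left list tested here, 409 had a larger left-over-right effect in E2 than in E1. The median excess was 3.015 log2 units, and 268 had an unadjusted p below 0.05 for the interaction. The list was chosen for its E2 effect, so these counts describe the list and do not test it.

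Contig 1705584 had 3.78, 3.32, 1.94, 3.02, and 0.751 CPM in the left libraries of snails 8, 9, 10, 11, and 13 and a single count in all right libraries together, at 0.112 CPM in snail 11. In E1 it was present on both sides, at 16.7 ± 7.34 CPM in the left and 16.4 ± 10.4 CPM in the right ganglia (SD, n = 6 each). The E2 effect exceeded the E1 effect by 6.72 log2 units (adjusted p = 0.0253 in the quasi-likelihood test of edgeR).

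Contig 685565 averaged 7.55 ± 5.40 CPM on the left and 0.130 ± 0.116 CPM on the right in E2 (SD, n = 5 each), and 39.7 ± 8.07 CPM in the left and 33.7 ± 8.39 CPM in the right ganglia of E1 (SD, n = 6 each). Contig 473854 averaged 9.37 ± 5.52 CPM on the left and 0.0969 ± 0.0966 CPM on the right in E2, and 3.42 ± 0.679 CPM in the left and 1.46 ± 0.483 CPM in the right ganglia of E1. The interaction was 5.34 and 4.88 log2 units for these contigs (adjusted p = 0.0253 for both in the same test). Contigs 1705584 and 685565 were thus nearly absent from the right medial part and present in whole right ganglia. The levels of E1 and E2 were scaled separately.

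The number of calls depended on single libraries, above all for the right list. Without the right library of snail 11 or of snail 13, 343 and 334 contigs were called in all, with 286 and 288 higher on the left, and without snail 8 as a whole 302 were higher on the left. The right list held 176 contigs without the shallow right library of snail 9 and 145 without the right library of snail 8. It held 36, 46, and 46 contigs without the left library of snail 10, the left library of snail 9, and the right library of snail 13, and 135, 24, 48, and 34 contigs without snails 9, 10, 11, and 13.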

How the data were processed

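Counts were taken from 24 libraries, of which the 10 libraries of 5 snails with both sides in E2 were compared, with E1 and the unpaired libraries of snails 7 and 12 used beside them. The authors removed adapters with cutadapt 1.11, assembled contigs without a genome, mapped reads with Bowtie 1.0.0, and deposited expected counts per contig from RSEM 1.2.18, neither normalized nor filtered. Labels name poly A RNA, and the extraction text names rRNA depletion with a stranded total RNA kit. Multi-mapped reads were divided among contigs by RSEM, so that contigs of the same transcript or of near-identical copies are uncertain, and several contigs can belong to 1 transcript.

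Expected counts were rounded. Contigs with a total above 10 over the libraries of a fit were kept, scaled by TMM, and tested with edgeR's exact test, the test of the study (BH-adjusted p below 0.05, fold change above 2). CPM used TMM over the libraries of 1 experiment. Alternatives were the quasi-likelihood test (with and without the snail as a block, and with activation), DESeq2, other scalings, filters and fold thresholds, thinning, and leaving out libraries or snails. Comparison within treatment states and the scaling by total counts in snail 9 were chosen after seeing the data. Fits ran in edgeR 4.0.16 and DESeq2 1.42.0 (limma 3.58.1, R 4.3.3). The fits were tested on simulated data, in which the exact test and the block made more false calls than the threshold aims at, so the list sizes are not firm.

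The members and lists were chosen with earlier results of these data known. Libraries with the same number come from 1 snail by the labels. For the 21861 contigs averaging 50 or more counts, deviations from the side means correlated by 0.485 to 0.785 within snails and by -0.272 to -0.0179 between snails. Deviations from a side mean cancel over its libraries, so the values between snails are pushed negative by construction. The rule for named contigs took the *c-fos*/*fosl2* contig, 1398029, and, in each direction, the 2 called contigs with the same direction in all 5 snails and the smallest p in the weaker of the exact test and the blocked test. Contigs carry no gene names in the files, no sequence was printed, and no cell type markers could be checked. Totals ranged from 926128 to 29646376 counts. Intervals of shares (Wilson for counts, exact for contigs, 95%) and the floor of 3 counts cover counting error only. No column was left unmatched to a sample. Each library is 1 piece of tissue of 1 snail, so replicates are animals.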

Additional observations from a re-analysis of the deposited data

Results flagged for a closer look

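In the right libraries of E2, the share of counts taken by the contigs called higher on the left was 0.692% in snail 10, a control library, far from the 0.130 to 0.206% of the other 4. Of 21 groups of 5 libraries checked for such a gap, 1 showed it, and chance alone gives about 1 in 20. The share on the left of snail 10 was 12.4%, and without its right library 367 contigs were called higher on the left and 55 higher on the right.

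For 3 contigs, all called higher on the left in E2, the difference between left and right was larger in E2 than in E1 by a test of the interaction over both experiments. The excess on the log2 scale was 6.72 for contig 1705584, 5.34 for contig 685565, and 4.88 for contig 473854 (edgeR's quasi-likelihood test, adjusted p = 0.0253 each). E2 and E1 also differ in the piece of tissue taken, in the animals, and in the balance of activation over the sides. By the methods but not by a legend of the study, they differ in the visceral ganglion on the left in E1 as well. These cannot be told apart, and the test had no term for the snail or for activation. In the left library of snail 12, which had no part in the test, the contigs had 22.7, 33.7, and 5.37 CPM, and in the right library of snail 7 they had 0.213, 0.640, and 0 CPM.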

How the results depend on the processing

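List sizes depended on the setting. The 532 calls (455 higher on the left, 77 on the right) became 150 (147 and 3) with the quasi-likelihood test without a block, 1170 (880 and 290) with the replicate block, 822 (625 and 197) with DESeq2 and the replicate block, and 295 (251 and 44) after thinning to the smallest total. The right count was 140 with DESeq2, 141 with total counts, 46 without a filter, and 158 over all 12 E2 libraries, and the left count was 286 with the CPM filter (at least 1 CPM in 5 libraries). Leaving out single libraries or snails gave 334 to 598 calls in all, 286 to 531 on the left, and 24 to 176 on the right. With activation in the model, 445 contigs were called, against 1170 with the replicate block alone. In E1, 577 side calls became 869 with the replicate block and 343 with the quasi-likelihood test without it. The cause was not tested.

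The share of left calls without snail 9 that held in snail 9 was 77.6%. It was 66.4% when over 2-fold was asked for. Above 1.63 CPM on at least 1 side of snail 9 it was 85.9%, and 85.1% with total counts. For calls with the replicate block it was 61.6%, and with the CPM filter 71.3%. For right calls, 38.5% became 22.2%, 65.8%, 71.1%, 56.7%, and 64.0% in the same order. Over all contigs tested without snail 9, 59.4% were higher on the left in snail 9, 17.5% were higher on the right, and the rest were equal. The exact interval for left calls with the replicate block, 57.7 to 65.4%, includes that 59.4%. For right calls with the block, the interval of 49.3 to 63.9% lay above 17.5%. Contigs are not replicates and these values come from 1 snail, so neither interval tests a list. Between the left library of snail 12 and the right library of snail 7, 60.35% of the left calls with the block kept their direction. Over all contigs tested it was 40.5%. For the right calls with the block it was 61.5%, beside 46.0%. The contigs of the named 4 kept their direction in every fit in which they were tested, and contig 320255 alone lost its call, with activation in the model. With snail 9 included, the replicate block left the *c-fos*/*fosl2* contig uncalled (adjusted p = 0.0897), and without snail 9 the contig was called with the block (adjusted p = 0.00882) and not by the exact test of edgeR (adjusted p = 0.26). Depth limits contigs under 1.63 CPM in snail 9.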
